A study of Mus musculus with 11 samples.

Results

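The Myc locus was taken as the window chr15:61300000-62400000 of the mouse genome (mm9 build), which reaches 516.9 kb upstream and 583.1 kb downstream of the gene start. Myc lies on the plus strand at about chr15:61816900-61821900. Every interval that chromatin immunoprecipitation followed by sequencing (ChIP-seq) had called within this window was a member, 98 of the 162241 intervals in 8 lists. The lists came from mouse embryonic fibroblasts, primary cells that had been taken into culture from E12.5 embryos of a mixed C57BL/6 and 129 Sv background. The cells were left untreated and were either wild type or SA1-null, and the antibodies were against SA1, SA2, SMC1 and SMC3. Each antibody and genotype had 1 list. For SMC1 in SA1-null cells that list combines 2 replicates, and all others rest on 1 library each. The input DNA, which went through no antibody, was pooled over both genotypes. The labels do not say how many embryos gave the cells, nor their sex.

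Myc encodes a transcription factor that drives growth and division, and it is a well-known proto-oncogene. The gene sits in a gene-poor stretch whose enhancers act on its promoter over long distances. Cohesin is a ring that holds sister chromatids together and forms chromatin loops. SMC1 and SMC3 are the paired arms of the ring, and each ring in somatic cells carries either SA1 or SA2, the subunits that help to place it on chromatin. Cohesin is usually found at sites of the DNA-binding protein CTCF and also at active promoters and enhancers. CTCF was not among the antibodies here. In a RefSeq table of another build (GRCm38.p6), used for names only, the next gene downstream of Myc is the long noncoding RNA Pvt1, and the next annotated features upstream are the pseudogenes Gm18788 and Gm18154 and the long noncoding RNA D030024E09Rik. Their mm9 positions, and the exons and introns of Myc, were not analysed here.

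The lists hold positions without heights, so all values below are numbers, places and widths of intervals. Sequencing depth is unknown. With 1 list per group there was no replicate spread, and no test between genotypes was made. Over all chromosomes the SA1-null lists held more SMC1 and SMC3 intervals than the wild-type lists (47003 against 24000, and 34802 against 15564), and slightly fewer SA2 intervals (6352 against 7741). The SA1 antibody gave 26602 intervals in wild-type cells and 177 in SA1-null cells, none of the latter in the Myc window. Intervals that overlapped by at least 1 bp in any of the 8 lists were joined into positions, which gave 55 positions in the window. Of these, 37 rested on 1 list (67.3%), against 40.5% of all positions, and 4 held all 4 SMC lists, against 24.4%.

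The Myc promoter carried cohesin in both genotypes, in blocks just upstream of the gene start, at the start and within the gene. Within 2.5 kb of the start, wild-type cells had 3 SMC1 and 3 SMC3 intervals, and SA1-null cells had 5 and 3. SA2 had 1 interval there in each genotype. SA1 had none in wild-type cells, and neither input list had one.

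The upstream block held SA2 and both ring subunits in each genotype, with no SA1. In wild-type cells SMC1 was called at chr15:61814543-61815330 (788 bp), SMC3 at chr15:61814565-61815302 (738 bp) and SA2 at chr15:61814723-61815150 (428 bp). In SA1-null cells SMC1 was called at chr15:61814571-61815307 (737 bp), SMC3 at chr15:61814557-61815434 (878 bp) and SA2 at chr15:61814775-61815156 (382 bp). The SA2 intervals lay inside the SMC1 and SMC3 intervals of their own genotype and ended 1.75 kb (wild type) and 1.74 kb (SA1-null) upstream of the gene start. Both were narrower than the median of their list, 463 and 528 bp. The SA1-null SA2 interval is the only one of that list in the window, and it is lost if intervals under 400 bp are left out. The nearest wild-type SA1 interval was 4.60 kb away, downstream and inside the gene.

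This combination was uncommon in the lists. Of 58646 positions on all chromosomes, 2446 had all 4 SMC lists and both SA2 lists, and 24 of these had no wild-type SA1 interval. The 24 made up 0.981% of the 2446 and 0.0409% of all positions. They lay on 13 chromosomes, 4 of them on chromosome 15, and none overlapped an input interval. The distance to the nearest wild-type SA1 interval ranged from 0.814 to 92.5 kb among them, with a median of 8.60 kb, and was larger than at Myc for 16 of the 24. Since depth is unknown, SA1 was not detected at the Myc position rather than shown to be absent.

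At the gene start and within the gene, both ring subunits were again called in each genotype. SMC1 spanned the start in wild-type cells at chr15:61816769-61817822 (1054 bp) and in SA1-null cells at chr15:61816815-61817746 (932 bp). SMC3 began 58 bp inside the gene in wild-type cells, at chr15:61816958-61817395 (438 bp), and spanned the start in SA1-null cells, at chr15:61816693-61817795 (1103 bp). The SMC3 interval was thus the wider one in SA1-null cells, and the SMC1 interval was not. Median widths of the whole lists differed the same way. In SA1-null against wild-type cells they were 652 against 563 bp for SMC3 and 535 against 579 bp for SMC1. The gene start is approximate, and 58 bp is less than the 100 bp by which it was moved as a check. Whether wild-type SMC3 spans the start is therefore not settled. A further block lay inside the gene. There SMC1 began 1.41 kb from the start in wild-type cells (732 bp wide) and 1.40 kb from it in SA1-null cells (1244 bp wide). SMC3 began at 1.53 kb (621 bp wide) and 0.898 kb (1315 bp wide) in that order. No SA2 interval lay at the start or inside the gene in either genotype.

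**Figure D1:**
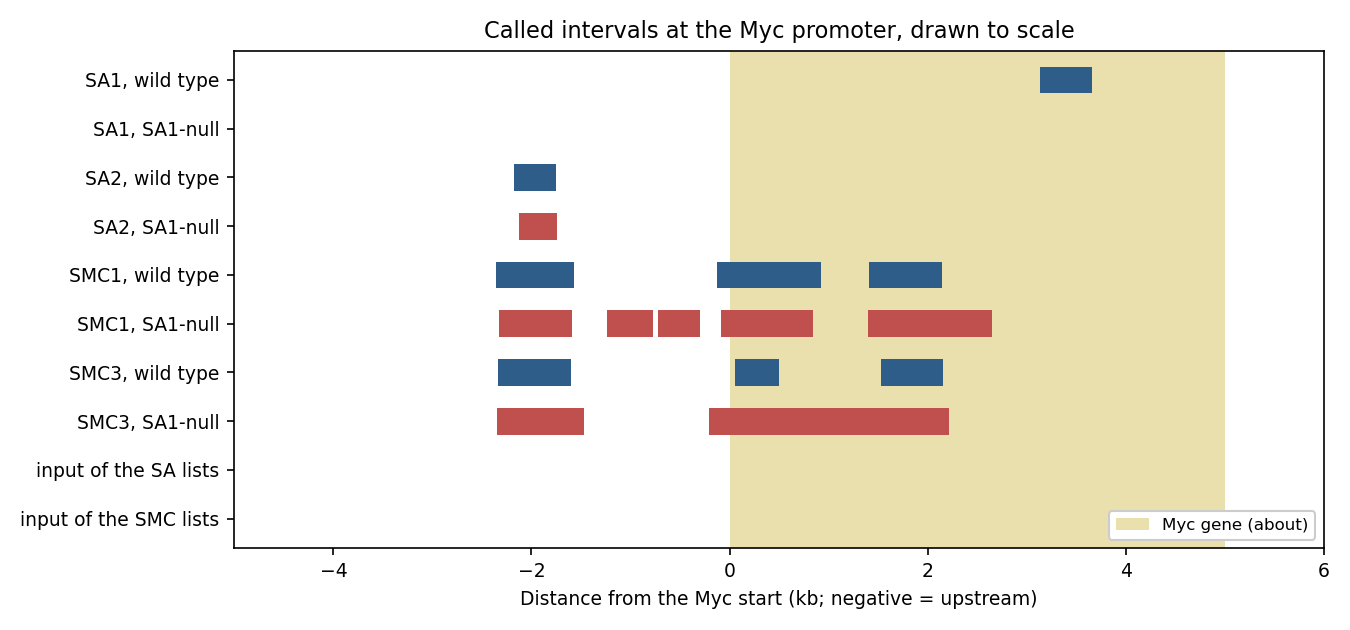
Called intervals from 5 kb upstream to 6 kb downstream of the Myc start, drawn to scale; the x axis is the distance from the start in kb, each row is a list (blue wild type, red SA1-null, grey input) and the shaded band is the gene. SA2 of both genotypes lies within the SMC1 and SMC3 intervals about 1.75 kb upstream, while the only SA1 interval lies 3.14 kb inside the gene, and the input rows are empty.

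The SA1-null lists covered more of the promoter. Of the 5 kb centred on the gene start, 51.5% lay in SMC1 intervals of wild-type cells and 73.1% in those of SA1-null cells. For SMC3 the coverage was 35.9% and 65.9%. Over all chromosomes the SA1-null lists held 1.96 times as many SMC1 and 2.24 times as many SMC3 intervals as the wild-type lists. The coverage at Myc was not set beside that of other promoters. Part of the SMC1 difference came from a pair of SA1-null intervals with no counterpart in any other list, at chr15:61815667-61816130 (464 bp) and chr15:61816179-61816601 (423 bp). They filled most of the space between the upstream block and the start, and the nearer one ended 299 bp before it. The SA1 interval inside Myc, at chr15:61820038-61820555 (518 bp), began 3.14 kb from the start and overlapped no other list. The closest SA1-null SMC1 interval ended 0.492 kb before it. A ring interval at the Myc promoter therefore came with SA2 or with neither SA subunit, and never with SA1, in these lists.

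Upstream of the promoter block, wild-type cells had no SMC1 or SMC3 interval in the window. The gap without wild-type SMC1 ran for 581.7 kb, from chr15:61232821 to the promoter block, and that without wild-type SMC3 for 824.9 kb. Such gaps were long for these lists, in which the median gap was 40.3 kb for SMC1 and 64.3 kb for SMC3. Of all gaps, 2.47% were longer for SMC1 (593 of 23980) and 3.11% for SMC3 (483 of 15544). These shares count gaps and not the bases within them. A chosen place falls in a long gap more often than such shares give, and gaps beside other genes were not examined. The SA1 list and the SA1-null ring lists also had a long gap upstream of Myc, measured against their own gaps. It was 333.2 kb for wild-type SA1 (4.89% longer), 203.5 kb for SA1-null SMC1 (3.8% longer) and 215.9 kb for SA1-null SMC3 (5.26% longer). Not all of these gaps ended at the promoter block. The SA1-null SMC1 gap ended at an interval 9.95 kb upstream of the start, and the SA1 gap ended inside the gene. In SA1-null cells the part of the window upstream of the promoter held 7 SMC1 and 2 SMC3 intervals. The nearest to the gene was an SMC1 interval at chr15:61806486-61806955, 9.95 kb upstream, and beyond it no SA1-null ring interval was called as far as 213.9 kb from the start. SMC1 and SMC3 were called together at only 1 of these places, chr15:61419619-61420443, 396.5 kb upstream, where an interval of the input list of the SA libraries also lay.

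SA1 and SA2 of wild-type cells did have intervals upstream of the promoter block, and none of them overlapped another list. SA1 had 4, at 452.8, 452.0, 375.3 and 330.1 kb from the start. SA2 had 4 besides the promoter interval, at chr15:61407880-61408406 (408.5 kb upstream), chr15:61506248-61506738 (310.2 kb), chr15:61708825-61709229 (107.7 kb) and chr15:61783596-61784038 (32.9 kb). The SA2 list of SA1-null cells had no interval at these 4 places. In the whole wild-type SA2 list, 62.7% of intervals had no SA1-null SA2 partner and 28.4% overlapped no other list. Of the 5 wild-type SA2 intervals in the window, 5 had no SA1 interval, against 30.9% of the list. All 5 lay upstream of the gene start, and no SA2 interval of either genotype lay downstream. With 5 intervals, the 95% Wilson intervals are wide: 37.6 to 96.4% for 4 of 5 and 56.6 to 100% for 5 of 5. The share of the list lay inside the interval for SA2 without a partner, and below it for SA2 without SA1 and for SA2 overlapping no other list.

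**Figure D2:**
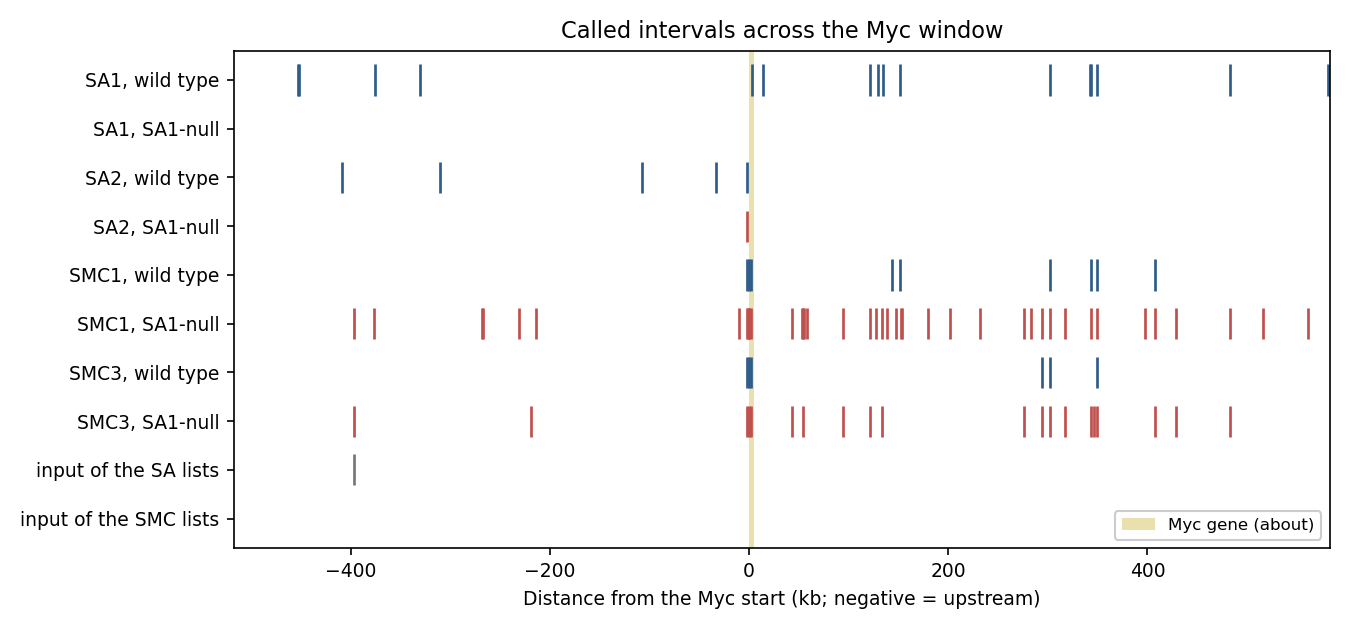
Every called interval across the window, one tick each at its midpoint (not its width), by list; the x axis is the distance from the Myc start in kb and the shaded band is the gene. Wild-type SMC1 and SMC3 (blue) have no tick upstream of the promoter block, while the SA1-null lists (red) have 7 and 2 there and are denser downstream.

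Downstream, the wild-type ring was called at few and mostly distant places. SMC1 had 6 intervals beyond the promoter, starting 143.2, 151.8, 301.5, 342.8, 348.7 and 407.0 kb from the gene start. SMC3 had 3, starting 294.1, 301.7 and 348.7 kb from it. No wild-type ring interval was called between the gene and 143.2 kb. SA1 accompanied SMC1 at 151.8, 301.5, 342.8 and 348.7 kb, and SMC3 at 301.7 and 348.7 kb. The positions at chr15:62118051-62119491 and chr15:62165553-62166607, 301.2 and 348.7 kb downstream, held SA1 and all 4 SMC lists without SA2, and were the only such positions in the window. No position held all 7 lists that contain cohesin, a class that made up 4.13% of all positions.

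SA1 was called at more places than it shared with the ring, and 9 of its 16 intervals overlapped no other list (15.2% of the SA1 list). Of the 16 wild-type SA1 intervals in the window, 12 had no wild-type SMC1 or SMC3 interval (75.0%, 95% Wilson interval 50.5 to 89.8%), against 32.8% of the whole SA1 list. When the SA1-null ring was taken in place of the wild-type ring, 9 of 16 had none (56.2%, 33.2 to 76.9%), against 17.1% of the list. The 3 that had a ring interval in SA1-null cells only lay 121.1, 133.8 and 482.7 kb downstream, and there SMC1 and SMC3 were both called. Conversely, 5 of 9 wild-type SMC1 intervals had no SA1 interval (27.5% of the list), and 4 of 6 wild-type SMC3 intervals had none (14.6% of the list). At the promoter this held for all 3 SMC1 and all 3 SMC3 intervals.

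SA1-null cells had 4.56 times as many SMC1 intervals in the window as wild-type cells (41 against 9, exact 95% binomial interval 2.18 to 10.7), and 3.33 times as many SMC3 intervals (20 against 6, 1.29 to 10.1). For SA2 the ratio was 0.200 (1 against 5, 0.00423 to 1.79). The whole lists gave 1.96, 2.24 and 0.821 in that order. The SMC1 ratio of the Myc window was higher than that of its lists, with a lower limit of 2.18 against 1.96. The intervals of the SMC3 and SA2 ratios included the ratios of their lists. All these intervals cover the counting of called intervals only and take each call as independent, while some calls lay close together. Merging intervals closer than 1000 bp gave SMC1 counts of 34 against 8. SA1-null SMC1 also stands for 2 replicates combined, and no test between genotypes was made. With the longer list of each antibody cut by width to the length of the shorter one, the SMC1 counts were 25 against 9, a ratio of 2.78, and the SMC3 counts 14 against 6, a ratio of 2.33.

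**Figure D3:**
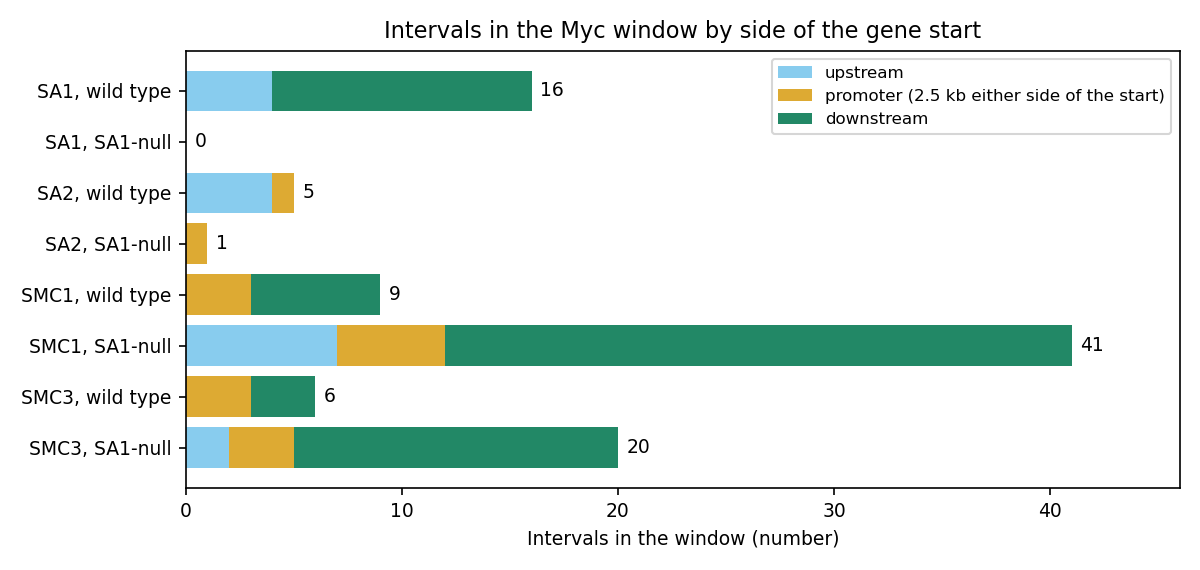
Number of intervals in the window per list (total at the end of each bar), split into upstream, promoter (within 2.5 kb of the start) and downstream. The SA1-null SMC1 list reaches 41, with 29 downstream, against 9 and 6 in wild-type cells.

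The Myc window was then set beside windows of the same length. Chromosome 15 was divided into 90 such windows, and 79 had a wild-type SMC1 interval. None of the other 78 had a higher SMC1 ratio, and their median with Myc included was 2. For SMC3, 8 of 74 windows had a higher ratio. Over all chromosomes, 1568 of 2324 windows had at least 5 wild-type SMC1 intervals, and 7 of these had a higher SMC1 ratio than Myc, or 12 with the lists at equal length. For SMC3, 82 of 1320 were higher, or 23 at equal length. In wild-type cells the window held 9 SMC1 and 6 SMC3 intervals, equal to the chromosome's median windows of 9 and 6. In SA1-null cells it held 41 and 20, against medians of 20 and 14. Per Mb, SA1-null SMC1 reached 37.3 intervals in the window (exact Poisson interval 26.8 to 50.6), against 20.2 on the rest of the chromosome. Wild-type SMC1 reached 8.18 (3.74 to 15.5), against 10.4.

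**Figure D4:**
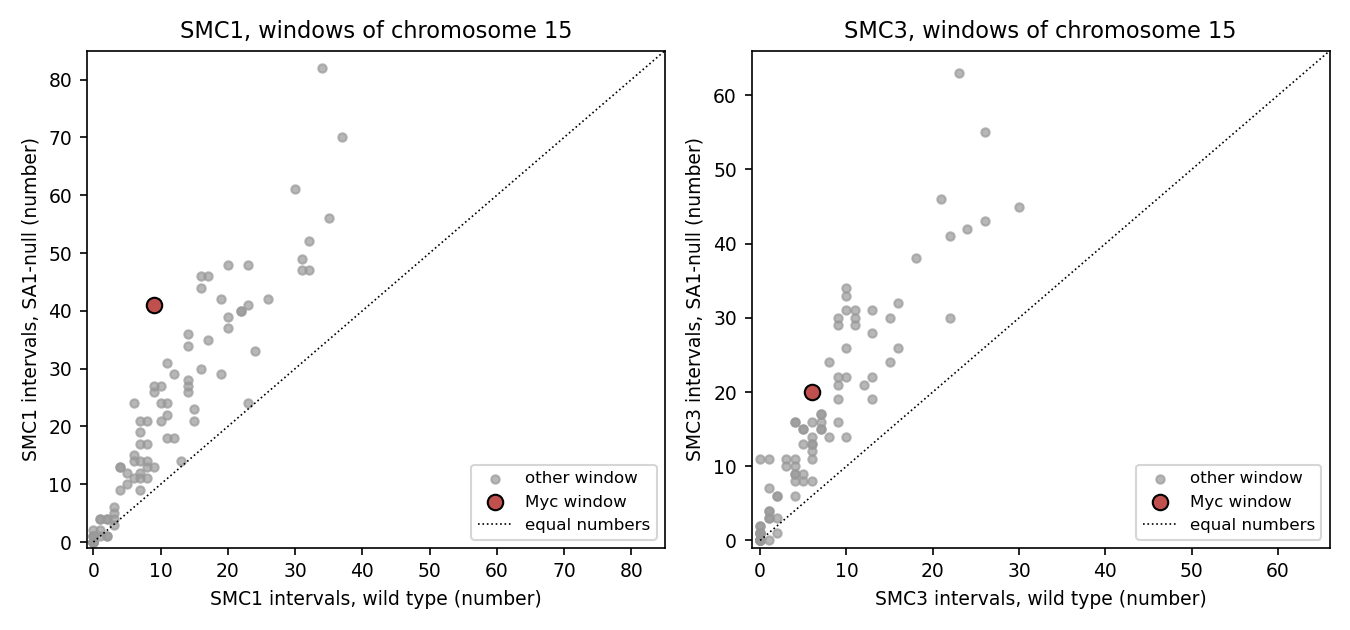
Intervals in the 90 windows of chromosome 15, wild type on the x axis and SA1-null on the y axis, for SMC1 (left) and SMC3 (right); the dotted line marks equal numbers. The Myc window lies at 9 and 41 for SMC1, above every other window with 9 or fewer wild-type intervals. For SMC3 it lies at 6 and 20, above every other window with 6 or fewer, though 8 windows had a higher SMC3 ratio.

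Ring intervals of wild-type cells were called again in SA1-null cells at 8 of 9 places for SMC1 and 6 of 6 for SMC3, shares near those of the whole lists. Most SA1-null ring intervals had no wild-type partner, and for SMC1 this share stood above that of its list. Of the 9 wild-type SMC1 intervals, 1 had no SA1-null SMC1 partner (6.64% of the list), and of the 6 wild-type SMC3 intervals none was without (3.25% of the list). The exception, at chr15:61960147-61960634 (488 bp), 143.2 kb downstream, overlapped no list of either genotype. Conversely, 33 of 41 SA1-null SMC1 intervals in the window had no wild-type SMC1 partner (80.5%, 95% Wilson interval 66.0 to 89.8%), against 52.2% of the list. For SMC3 the count was 14 of 20 (70.0%, 48.1 to 85.5%), against 56.9%. The share of the list lay below the interval for SMC1 and inside it for SMC3. At equal list lengths, 8 of 25 SA1-null SMC1 intervals in the window had a partner (32%, interval 17.2 to 51.6%), against 61.2% of the shortened list. For SA1-null SMC3, 6 of 14 had one (42.9%, 21.4 to 67.4%), against 59.0%.

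**Figure D5:**
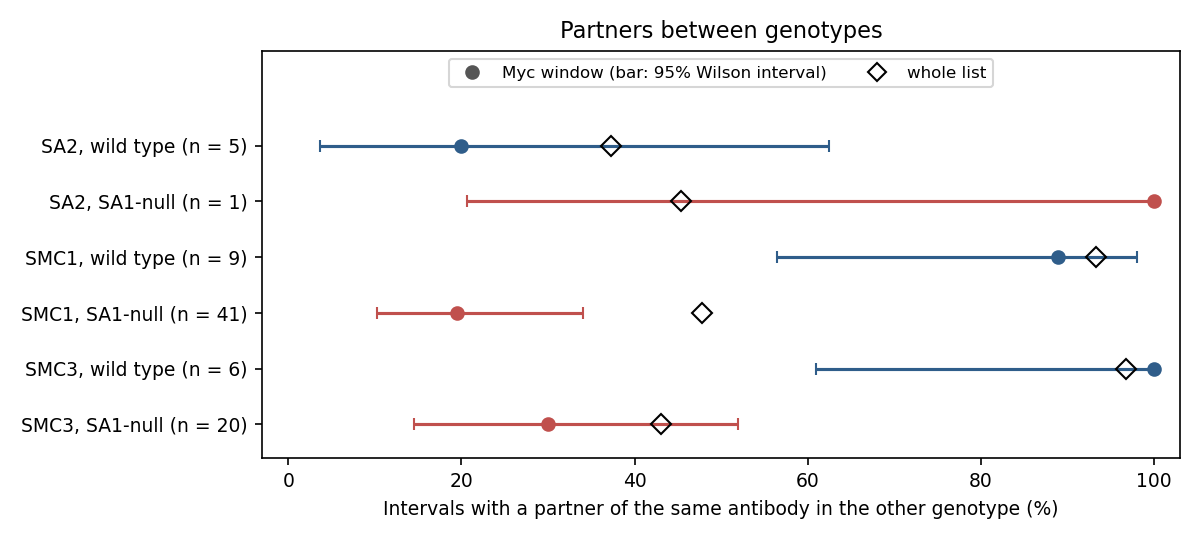
Percent of intervals in the window that overlap an interval of the same antibody in the other genotype (filled circles, bars are 95% Wilson intervals) and the same share of each whole list (open diamonds). The diamond lies outside the bar only for SMC1 in SA1-null cells.

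The SA1-null SMC1 intervals without a wild-type partner were set beside those with one, with no test of the difference. Of the 33, 3 lay at a wild-type SA1 interval and 12 had an SA1-null SMC3 interval, and their median width was 537 bp. Of the 8 with a partner, 4 lay at SA1 and 7 had SMC3, with a median width of 857 bp. In the whole list, 17.4% of the intervals without a partner lay at SA1 and 41.0% had SMC3, against 76.1% and 94.6% of those with one. None of these SA1-null ring intervals had an SA2 interval except in the block just upstream of the gene start. The SA1-null SA2 list is short, with 6352 intervals against 47003 for SMC1 and 34802 for SMC3. Most ring intervals of the whole lists therefore lack SA2 as well, and the exact share is not given here. In the window, 21 of 41 SA1-null SMC1 intervals overlapped no other list (51.2%, 36.5 to 65.8%, against 27.4% of the list), so that these calls rest on SMC1 alone. Of the 20 SA1-null SMC3 intervals, 2 overlapped no other list (8.45% of the list), and the same 2 were the only ones without an SA1-null SMC1 interval (11.2% of the list). For SMC1, 22 of 41 had no SA1-null SMC3 interval (33.4% of the list). Wild-type SA1 was missing at 34 of the 41 SMC1 intervals (82.9%, 68.7 to 91.5%, against 54.5% of the list) and at 14 of the 20 SMC3 intervals (70.0%, 48.1 to 85.5%, against 42.5%).

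At 7 positions of the window, SMC1 and SMC3 were both called in SA1-null cells and no wild-type list had an interval, 12.7% of the 55 positions against 11.3% of all positions. The 5 widest of them were chr15:61870509-61871848 (1340 bp, 53.6 kb downstream), chr15:61910502-61911727 (1226 bp, 93.6 kb downstream), chr15:61419619-61420443 (825 bp, 396.5 kb upstream), chr15:62092923-62093673 (751 bp, 276.0 kb downstream) and chr15:62133515-62134228 (714 bp, 316.6 kb downstream). At the position 396.5 kb upstream an interval of the input list of the SA libraries also lay. The widest position lay in a run of 4 SA1-null SMC1 intervals between 52.7 and 58.3 kb downstream, where wild-type cells had no interval of any antibody. From 50 to 100 kb downstream SA1-null cells had 5 SMC1 and 2 SMC3 intervals, and wild-type cells had none in any of the 4 lists. This stretch was picked after its values were seen. Gaps near this length are common within a single list, since median gaps were 42.2, 40.3 and 64.3 kb in the wild-type SA1, SMC1 and SMC3 lists. How often all 4 wild-type lists are empty together was not counted. Some of the 5 SMC1 intervals lay closer together than 1000 bp. Between 250 and 400 kb, where wild-type cells had 3 SMC1, 3 SMC3 and 4 SA1 intervals, SA1-null cells had 8 SMC1 and 7 SMC3 intervals. Across the window, 30 of the 55 positions held SA1-null lists only (54.55%, against 39.33% of all positions). Wild-type lists only were held by 14 (25.45%, against 13.1%) and both genotypes by 11 (20.0%, against 47.57%). Of the 14, 9 were SA1 alone, 4 SA2 alone and 1 SMC1 alone. Of the 11, 1 lay upstream of the start, namely the block with SA2.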

How the data were processed

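ChIP-seq interval lists of 8 immunoprecipitations and 2 pooled inputs were used. Each deposited list holds 3 columns, a chromosome, a start and an end, and no score. Per the submitters' processing notes, reads were handled with CASAVA 1.7 and placed on mm9, and for the aligner and the peak caller nothing is stated in the sources at hand. The deposited names give a false discovery rate of 10, with no minimum fold. They also show 1 input for the SA lists other than SA1 in SA1-null cells, and another for the rest. Fragments were 100 to 200 bp and PCR took 14 cycles, per the labels' protocols.

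Starts were taken as counted from 0 and are given counted from 1. Distances run from the gene start, which is approximate, to the nearest edge of an interval. Overlap needed at least 1 bp. Windows of equal length were laid out from the Myc window on chromosome 15 and from the first interval elsewhere. Shares have 95% Wilson intervals, ratios exact binomial and densities exact Poisson ones, for counting error only. Python 3.11.15, numpy 2.4.6, scipy 1.17.1 and matplotlib 3.10.9 were used. Overlap counts equalled those of bedtools 2.31.1 for 100 of 100 pairs of lists. Partners were also planted as copies of wild-type SMC1 intervals shifted by a short distance, and 100% were recovered. Such copies overlap their originals by design, so this checks the code only.

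Positions named by rule were those at the promoter, the nearest on each side, all with SA2, any in all 7 cohesin lists, the 5 widest with SMC1 and SMC3 in SA1-null cells alone, and wild-type ring intervals without a partner. Others were chosen after their values were seen. The window, lists and comparisons were chosen with earlier results of these data known.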

Additional observations from a re-analysis of the deposited data

Results flagged for a closer look

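The input list of the SA libraries, which is not among the antibody measurements, held 1 interval in the Myc window. It lay 396.4 kb upstream of the gene start (-396.4 kb from it), at chr15:61420056-61420451 (396 bp), and overlapped the SMC1 and the SMC3 interval of SA1-null cells. The input list of the SMC libraries had none in the window. Over all chromosomes, 0.0596% of SA1-null SMC1 and 0.0603% of SA1-null SMC3 intervals overlapped an input interval. Its part in the 2 SA1-null intervals was not tested.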

How the results depend on the processing

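Of 130 recomputed values, 115 stayed within 1.5 times the reported count or within its counting interval, and 15 did not. Some could hardly change, such as the SA1-null SA1 counts of 0, and counting intervals of small counts are wide. The tally is therefore no measure of robustness. Within 250 kb of the gene start, which takes in less of the window, the counts were 6 for SA1, 3 for SA2, 5 for SMC1 and 3 for SMC3 in wild-type cells, and 24 for SMC1 and 9 for SMC3 in SA1-null cells. At equal list lengths SA1-null SMC1 had 25. Without intervals under 400 bp, SA1-null SA2 had 0 and the share of wild-type SA2 with a partner was 0%. Within 1 kb of the start, which leaves out the upstream block, SA2 had 0 in either genotype, wild-type SMC1 and SMC3 had 1 each, and SA1-null SMC1 had 3. Within 5 kb, SA1 in wild-type cells had 1. Moving the gene start by 100 bp changed no promoter count past 1.5 times. The equal lengths, the moved start, the widths for the nearest intervals and the removal of input intervals were chosen after the data were seen. Leaving out a replicate was not run, because both SA1-null SMC1 replicates share 1 list. No paired analysis was possible because each group has 1 list and no test was made. Depth is unknown, so a missing interval does not show missing cohesin.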

Other observations

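The windows of equal length on either side of the Myc window held fewer SA1-null ring intervals, and also fewer wild-type ones. The window before it held 24 SMC1 and 15 SMC3 intervals in SA1-null cells, and 6 and 5 in wild-type cells. The window after it held 13 and 7 in SA1-null cells, and 4 and 1 in wild-type cells. For wild-type SA1 the numbers were 10 before, 16 at Myc and 18 after. Within the Myc window the SA1-null SMC1 intervals without a wild-type partner had a median width of 537 bp, against 480 bp for such intervals on all chromosomes, and for SMC3 the medians were 701 and 603 bp.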
